A study of Homo sapiens with 12 samples.

Results

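The genes described here are 7 human cell-surface genes followed through loss of BACH1 in AsPC-1 cells, an established line from a pancreatic ductal adenocarcinoma. They are 5 carcinoembryonic antigen-related cell adhesion molecules, *CEACAM1*, *CEACAM5*, *CEACAM6*, *CEACAM7* and *CEACAM19*, and the tumour antigens *MSLN* (mesothelin) and *PSCA* (prostate stem cell antigen). They were found by gene identifier among the 57820 identifiers of the count tables, and all 7 were present. They were chosen by their levels in the 4 groups and by their fold changes in both BACH1 contrasts of these data, so their values below are a description, with no p-value.

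RNA sequencing covered 12 libraries, 3 in each of 4 groups. The siBACH1 group was transfected with an siRNA against *BACH1* and harvested 24 h later, and the siCont group is its labelled control. The sgBACH1 group was infected with a lentiCRISPR v2 lentivirus carrying Cas9 and 1 guide against *BACH1*, and the sgCont group is its labelled control. Both of these groups were described as selected in puromycin at 10 µg/ml. No source used here gives the control siRNA, the control guide, or whether the knockout cells are a clone or a pool. All groups share the line and a medium with serum. No label says that replicates were separate cultures, so the p-values for other genes reflect library-to-library spread only, part of which may be technical. The lists of other genes were chosen with earlier results of these data known. Genes named from them are mainly the called ones of largest change.

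CEACAM proteins are immunoglobulin-type adhesion molecules of epithelia and leukocytes that bind one another between and along cells. CEACAM1 spans the membrane and, in its long-tailed form, recruits SH2-domain phosphatases. CEACAM5, the carcinoembryonic antigen measured in blood in gastrointestinal cancer, CEACAM6 and CEACAM7 are instead held by a glycosylphosphatidylinositol (GPI) lipid anchor. Mesothelin, also GPI-anchored, is made by mesothelial cells and many pancreatic cancers and binds the mucin MUC16, while PSCA is a small GPI-anchored protein of the LY6/uPAR fold. BACH1 is a heme-binding repressor that pairs with small MAF proteins at antioxidant response elements.

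The promoters of 4 CEACAM genes, from RefSeq (GRCh38.p14), are shown first, because *CEACAM5*, *CEACAM6* and *CEACAM7* lie in 1 cluster and their promoters resemble each other and that of *CEACAM1*. Each line gives 100 bases before the start site and 30 after it, 5′ to 3′ on the gene's strand. Capitals mark an E-box, CACGTG, and in *CEACAM1* and *CEACAM7* the bases aligned to it.
CEACAM5 (chr19:41708526-41708655, plus strand): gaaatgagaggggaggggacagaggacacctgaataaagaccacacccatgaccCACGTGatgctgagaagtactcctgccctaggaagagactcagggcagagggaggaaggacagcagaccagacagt
CEACAM6 (chr19:41755430-41755559, plus strand): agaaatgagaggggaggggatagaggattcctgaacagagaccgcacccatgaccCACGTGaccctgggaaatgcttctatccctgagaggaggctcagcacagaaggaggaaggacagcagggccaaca
CEACAM7 (chr19:41688241-41688370, minus strand): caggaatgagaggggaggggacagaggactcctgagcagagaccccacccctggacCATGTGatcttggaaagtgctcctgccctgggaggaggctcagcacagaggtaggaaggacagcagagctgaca
CEACAM1 (chr19:42528452-42528581, minus strand): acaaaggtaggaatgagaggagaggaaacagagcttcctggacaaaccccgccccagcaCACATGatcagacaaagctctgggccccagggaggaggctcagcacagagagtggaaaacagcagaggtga

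Over the full 300 bases of the table, the *CEACAM5* and *CEACAM7* promoters were identical at 81.4% of aligned columns and *CEACAM6* and *CEACAM7* at 80.5%. *CEACAM5* and *CEACAM6* shared 74.7%, and *CEACAM1* shared 65.6% to 71.2% with the other 3. CACGTG, read the same on both strands and picked after the sequences were seen, was present in the *CEACAM5* and *CEACAM6* promoters and in 7.26% of all 35116 promoters of this length. The antioxidant response element core TGACNNNGC, searched on both strands, was present in the *CEACAM1* promoter and in 13.3% of all promoters. The AP-1 type motif TGACTCA, likewise on both strands, was in none of the 4 and in 4.95% of all. A TGACTCA followed by GC would count for both. A match shows only that the letters are present.

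The identical stretches inside the transcripts bear on how the genes were counted, and the longest one for each pair of the 3 abundant CEACAM genes is shown in lower case. All lie in coding sequence on chromosome 19 (GENCODE 29, GRCh38), each within a single exon of both genes.
CEACAM5 and CEACAM6: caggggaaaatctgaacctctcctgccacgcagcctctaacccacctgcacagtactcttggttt
CEACAM1 and CEACAM5: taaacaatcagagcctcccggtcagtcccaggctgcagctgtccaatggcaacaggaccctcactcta
CEACAM1 and CEACAM6: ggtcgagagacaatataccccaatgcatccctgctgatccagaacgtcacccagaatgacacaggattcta

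These runs are 65, 68 and 71 bases long. In all, 14.1% of the *CEACAM6* transcript, 12.7% of *CEACAM5* and 9.78% of *CEACAM1* lay in stretches of at least 50 bases identical to a transcript of another member, CEACAM gene or pregnancy-specific glycoprotein gene. No such stretch was found in *CEACAM7*, *CEACAM19*, *MSLN* or *PSCA*. Reads from within these stretches could have come from either relative, so the levels of *CEACAM1*, *CEACAM5* and *CEACAM6* are uncertain. The shares of length do not bound this, because *CEACAM6* had 13.4 to 104.4 times the counts of *CEACAM5* in single libraries. A small part of the *CEACAM6* reads, if assigned to *CEACAM5*, would weigh far more there. The fold changes of *CEACAM5* and its likeness to *CEACAM6* carry the same limit, whose size was not tested.

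*BACH1* itself was measured first, as the check of the labels. Its level was 24.5, 27.2 and 25.04 CPM (counts divided by library size in units of 1000000, scaled over the 12 libraries) in siBACH1 libraries, against 195.9, 288.5 and 193.1 in siCont libraries. In sgBACH1 libraries it was 219.1, 198.7 and 188.2 CPM, against 269.9, 294.8 and 277.9 in sgCont libraries. All siBACH1 and sgBACH1 libraries were below their controls. By exact permutation, two-sided, p was 0.1 for siRNA and 0.1 for the knockout, which is the least that 3 against 3 libraries can give. The log2 fold changes were -3.15 ± 0.17 and -0.48 ± 0.08 (± standard error, here and below). A guide alters the gene and need not remove its RNA, so the second value does not measure the protein.

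Library depth ran from 13099706 to 21478886 counts. Library siCont 2 stood apart: its counts differed from those of siCont 1 and 3 with a chi-square per degree of freedom of 30.5 and 35.8, against 8.89 between those 2. Ductal markers, keratins included, summed to 12822–13122 CPM in siBACH1, 11329–12941 in siCont, 12233–13879 in sgBACH1 and 18973–20602 in sgCont libraries, and 8 of 9 reached 1 CPM in some library. The sums were carried by *KRT8*, *KRT18* and *KRT19*, and the list split: of 8 tested, 4 rose and 4 fell in the knockout by edgeR, and 3 rose and 2 fell after siRNA. In the knockout *KRT7*, *KRT8*, *KRT18* and *KRT19* fell, while *EPCAM*, *CDH1*, *SOX9* and *MUC1* rose, by 0.54, 0.57, 0.62 and 0.38 on the log2 scale. The part of these markers in the values below was not tested. Acinar and endothelial markers summed to less than 1 CPM in every library, and granulocyte and myeloid markers to 2.43–5.95. *LUM*, chosen after its values were seen, was the 1 of 7 fibroblast markers that reached 1 CPM. That list summed to 333.9–361.8 in siBACH1, 289.7–301.5 in siCont, 46.2–51.7 in sgBACH1 and 114.8–139.4 in sgCont libraries.

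Across the whole tables, edgeR's quasi-likelihood test called 23.9% of 14591 tested genes in siBACH1 against siCont, 10.9% higher and 13.0% lower. It called 23.5% of 14469 in sgBACH1 against sgCont, 11.3% higher and 12.3% lower. Of the difference between these responses, 23.6% of 15644 genes were called, 13.0% with a more positive response in the knockout and 10.6% with a more negative one. The first count, 3481 genes, became 2002, 2078 and 2096 without siBACH1 libraries 1, 2 and 3. Libraries of the compared groups did not overlap in CPM for 42.3% of tested genes after siRNA and 36.6% in the knockout. Groups that do not overlap, as reported for single genes below, are therefore common in these data. Among the members, 6 passed the filter on low counts in the siRNA experiment, of which 3 were called higher, 1 lower and 2 not. In the knockout experiment 5 passed, of which 3 were called higher, 1 lower and 1 not. Since these contrasts chose the members, nothing is read from their shares.

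**Figure D1:**
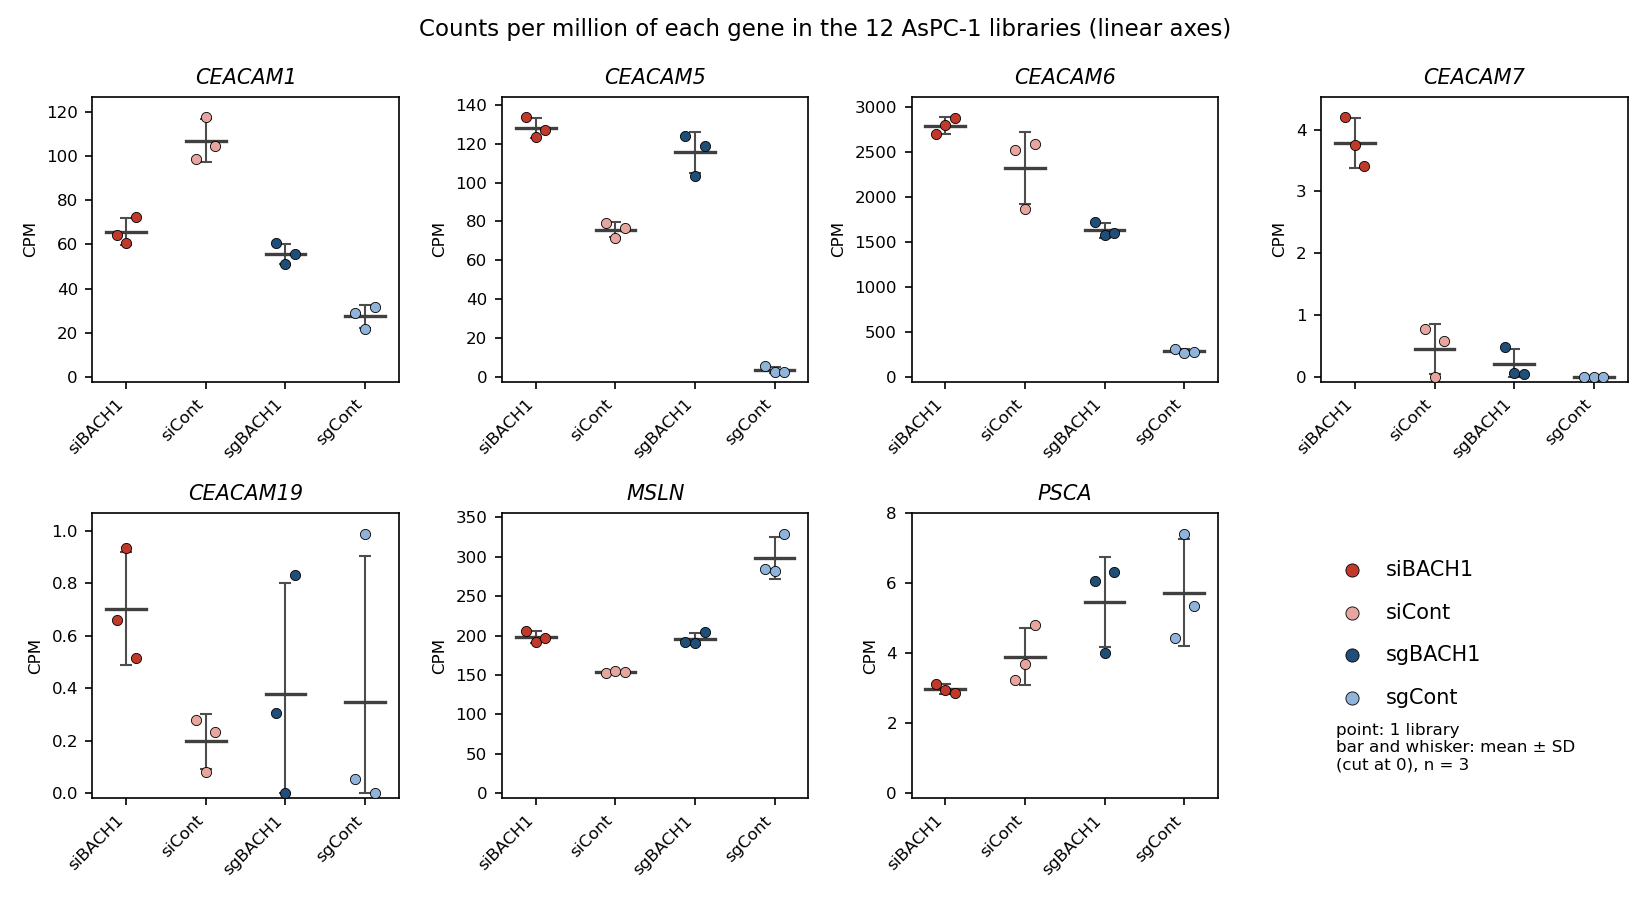
CPM (linear axes) of the 7 genes in each of the 12 libraries, with group means and SD (n = 3, cut at 0). *CEACAM5* and *CEACAM6* are near the bottom of their axes in sgCont alone, at means of 3.54 and 283.9 CPM, while *MSLN* is highest there at 298.8 CPM.

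*CEACAM5* (chromosome 19, 41708585 to 41729798, plus strand; ENSG00000105388.10) is placed, like the genes below, by GENCODE 29 on GRCh38. It encodes the GPI-anchored carcinoembryonic antigen. Its level was 124.1, 103.6 and 119.0 CPM in sgBACH1 libraries, against 5.34, 2.61 and 2.67 CPM in sgCont libraries. The underlying counts were 2045, 1660 and 2431 in sgBACH1, against 99, 37 and 45 in sgCont. The groups were far apart, with a log2 fold change of 4.99 ± 0.18, or 31.9-fold higher in sgBACH1. After siRNA it was 133.7, 123.8 and 127.0 CPM in siBACH1 libraries, against 79.2, 71.5 and 76.6 in siCont libraries. These groups did not overlap either, with a log2 fold change of 0.75 ± 0.08, or 1.68-fold higher in siBACH1. All libraries of siBACH1, siCont and sgBACH1 cells thus lay between 71.5 and 133.7 CPM, well above those of sgCont cells. In bulk RNA, fewer cells making a transcript and less of it per cell cannot be told apart.

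*CEACAM6* (19, 41750977 to 41772208, plus strand; ENSG00000086548.8) encodes a GPI-anchored adhesion molecule that blocks anoikis, the death of detached cells, when overexpressed. It was the most abundant member by mean CPM in siBACH1, siCont and sgBACH1 cells, and second to *MSLN* in sgCont cells. Its level was 1723, 1570 and 1593 CPM in sgBACH1 libraries, against 305.4, 267.9 and 278.4 in sgCont libraries, a log2 fold change of 2.52 ± 0.07 or 5.73-fold higher in sgBACH1. After siRNA it was 2692, 2795 and 2879 CPM in siBACH1 libraries, against 2517, 1865 and 2580 in siCont libraries. The siBACH1 libraries were all above the siCont ones on this scale. The log2 fold change was 0.26 ± 0.11, and 0.12 without siCont 2, the lowest library of its group.

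*CEACAM7* (19, 41673307 to 41706976, minus strand; ENSG00000007306.10) is a GPI-anchored relative known from the surface of colon and pancreatic duct epithelium. It had 70, 76 and 73 counts in siBACH1 libraries, against 11, 0 and 10 in siCont libraries. The groups did not overlap, with a log2 fold change of 2.99 ± 0.58, and 2.47 without siCont 2, the library at 0. *CEACAM7* passed the filter on low counts in this fit only through the siBACH1 libraries, where it was high, so nothing is read from its call. In the knockout experiment it had 8, 1 and 1 counts in sgBACH1 libraries, against none in sgCont libraries. That is at least 3.12-fold higher in sgBACH1 when 3 counts are taken as the floor over the sgCont group, and 8 of the 10 counts came from 1 library. The gene was too low there for the fit.

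*CEACAM1* (19, 42507304 to 42561234, minus strand; ENSG00000079385.17) encodes the transmembrane member that signals through its tail. Its direction was not the same in the 2 experiments. Its level was 64.5, 60.7 and 72.4 CPM in siBACH1 libraries, against 98.7, 117.6 and 104.8 in siCont libraries. All siBACH1 libraries were lower, with a log2 fold change of -0.71 ± 0.10. It was 60.5, 51.1 and 55.5 CPM in sgBACH1 libraries, against 28.9, 21.5 and 31.8 in sgCont libraries. All sgBACH1 libraries were higher, with a log2 fold change of 1.02 ± 0.14. The counts are for the whole gene, so its long-tailed and short-tailed forms were not told apart, and 185 of its 5524 exon bases are shared with the antisense gene *LIPE-AS1*, which had 4–28 counts.

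*CEACAM19* (19, 44662278 to 44684359, plus strand; ENSG00000186567.8), a distant family member of little known function, was near the detection limit. It had 11, 19 and 11 counts in siBACH1 libraries, against 4, 1 and 4 in siCont libraries, and the groups did not overlap. It had 5, 0 and 17 counts in sgBACH1 libraries, against 1, 14 and 0 in sgCont libraries, and these groups did overlap. It was tested in neither experiment alone. Of its 5203 exon bases, 121 are shared on the same strand with *PVR*, which had 329–958 counts, so its few counts also depend on how shared reads were treated.

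*MSLN* (chromosome 16, 760762 to 768865, plus strand; ENSG00000102854.10) also took opposite directions, the reverse of those of *CEACAM1*. Its level was 206.2, 192.0 and 196.9 CPM in siBACH1 libraries, against 152.6, 154.8 and 153.7 in siCont libraries. All siBACH1 libraries were higher, with a log2 fold change of 0.36 ± 0.07. It was 191.7, 191.0 and 203.9 CPM in sgBACH1 libraries, against 285.1, 281.9 and 329.5 in sgCont libraries. All sgBACH1 libraries were lower, with a log2 fold change of -0.61 ± 0.08. The siBACH1 and sgBACH1 groups overlapped in CPM, siCont was the lowest group and sgCont the highest.

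Mesothelin is itself a marker of mesothelial cells, and other mesothelial markers were therefore summed beside it. The list of 5, which leaves out *MSLN*, came to 303.6–317.2 CPM in sgBACH1 against 634.0–705.6 in sgCont libraries, and to 210.4–224.9 in siBACH1 against 220.7–296.4 in siCont libraries. Of these 5 markers, 3 reached 1 CPM in some library and none was at 0 in all libraries. These 3, named here after their values were seen, did not move together. The uroplakin gene *UPK3B*, which made up most of the sum, fell by 1.57 on the log2 scale in the knockout (edgeR adjusted p = 6.647e-14) and did not pass the test after siRNA, at -0.06 ± 0.16 (adjusted p = 0.8348). *CALB2*, which encodes calretinin, was at 0.23 ± 0.09 in the knockout (adjusted p = 0.05296), all sgBACH1 libraries being above sgCont ones, and fell by 0.86 after siRNA (adjusted p = 0.0001157). *LRRN4* was lower in the knockout too, with a log2 fold change of -3.57, and was too low to be tested after siRNA. It passed the filter in the knockout only through the sgCont libraries, where it was high, so no p is read from it. The part of such markers in the *MSLN* result was not tested.

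*PSCA* (chromosome 8, 142670308 to 142682724, plus strand; ENSG00000167653.4) was low in all groups. It had 52, 60 and 61 counts in siBACH1 libraries, against 46, 47 and 83 in siCont libraries, a log2 fold change of -0.41 ± 0.25. It had 100, 64 and 129 counts in sgBACH1 libraries, against 82, 105 and 90 in sgCont libraries, a log2 fold change of -0.07 ± 0.32. The knockout groups overlapped, and its sign turned to 0.11 without sgBACH1 2 and 0.16 without sgCont 2. Of its 1763 exon bases, 368 lie opposite exons of *JRK*, which had 568–1903 counts, so without a stated strand setting part of the *PSCA* counts could be *JRK* reads.

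**Figure D2:**
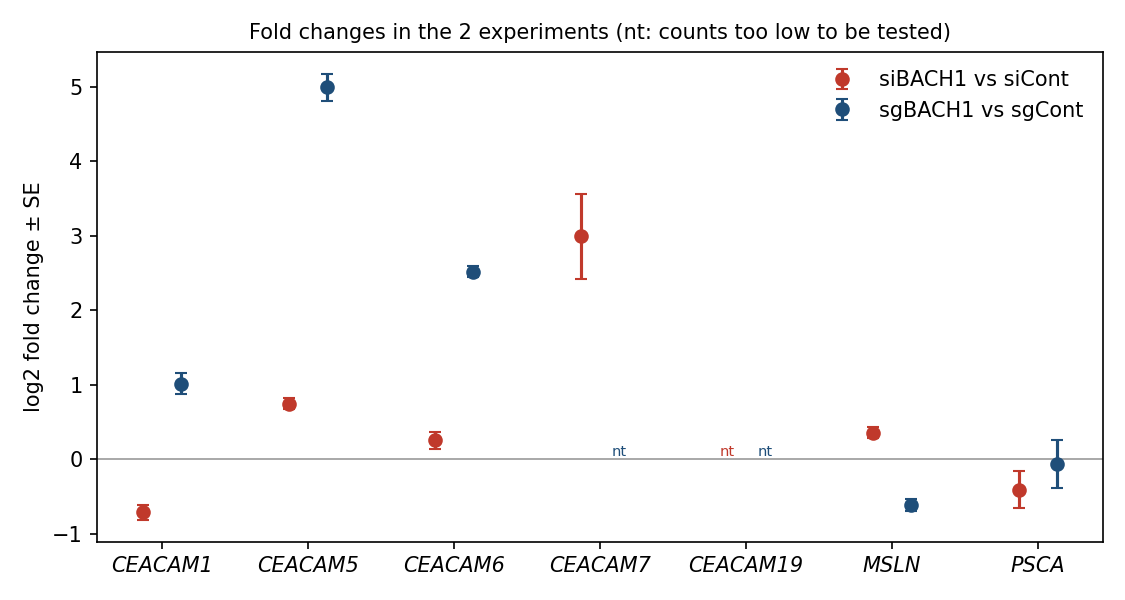
Log2 fold changes (points, whiskers ± standard error, 3 libraries a group) of the members in siBACH1 against siCont and sgBACH1 against sgCont. *CEACAM1* and *MSLN* are on opposite sides of 0 in the 2 experiments, and *CEACAM5* spans 0.75 to 4.99.

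The change in the knockout minus that after siRNA, from 1 fit of all 12 libraries, was 4.24 ± 0.23 on the log2 scale for *CEACAM5*, 2.26 ± 0.14 for *CEACAM6* and 1.72 ± 0.18 for *CEACAM1*. For *MSLN* it was -0.98 ± 0.11. It was 0.34 ± 0.40 for *PSCA*, 1.76 ± 1.63 for *CEACAM7* and -1.53 ± 1.61 for *CEACAM19*, each close in size to its own standard error or below it. Of the 7 members tested there, 3 were called positive, 1 negative and 3 not. The experiments differed in method, time and control, which cannot be told apart in this difference.

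Levels were also set per length of exon, as TPM (reads per base of exon, scaled so that all genes sum to 1000000), so that genes can be ranked. *CEACAM6* averaged 1712 ± 161 TPM in siBACH1 and 1326 ± 345 in siCont cells, and 816.3 ± 40.1 in sgBACH1 and 149.6 ± 14.1 in sgCont cells (SD, n = 3). It ranked 44th and 61st among all genes in siBACH1 and siCont cells, and 63rd and 402nd in sgBACH1 and sgCont cells. On this scale its siBACH1 and siCont ranges overlapped. *MSLN* came next, at 144.9 ± 8.1 TPM in siBACH1 and 103.9 ± 13.4 in siCont cells. In sgBACH1 cells *MSLN* averaged 117.0 ± 7.8 TPM, against 187.2 ± 10.3 in sgCont cells, where it was the most abundant member by length of exon. With coding lengths that order turned, at 202.4 TPM for *MSLN* and 352.4 for *CEACAM6* in sgCont cells.

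*CEACAM5* averaged 71.5 ± 4.0 TPM in siBACH1 and 39.2 ± 5.6 in siCont cells, and 52.8 ± 5.5 in sgBACH1 and 1.71 ± 0.81 in sgCont cells. *CEACAM1* averaged 22.4 ± 3.3 TPM in siBACH1 and 33.5 ± 4.8 in siCont cells, and 15.4 ± 1.4 in sgBACH1 and 7.95 ± 1.41 in sgCont cells. In siCont cells the TPM ranges of *CEACAM5* and *CEACAM1*, neighbours in that order, overlapped, and with coding lengths their means stood in the reverse order, at 45.5 and 85.7. In sgCont cells *CEACAM1* and *PSCA* stood above *CEACAM5*, and the TPM ranges of *CEACAM1* and *PSCA* overlapped. *PSCA* was at 3.15–5.22 TPM as a group mean, *CEACAM7* at 0–2.66 and *CEACAM19* at 0.066–0.251. In siCont, sgBACH1 and sgCont cells the ranges of the last pair overlapped.

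*CEACAM6* made up 88.9–93.6% of the counts of the 11 CEACAM genes in every library. Those 11 genes together held 0.294–0.308% of all counts in siBACH1 and 0.2002–0.289% in siCont libraries. They held 0.172–0.190% in sgBACH1 against 0.029–0.034% in sgCont libraries. The ratio of *CEACAM6* to *CEACAM5* TPM was 22.1–24.9 in siBACH1 against 28.6–37.0 in siCont libraries, and 14.7–16.6 in sgBACH1 against 62.7–114.6 in sgCont libraries. On these counts the ratio was lower in siBACH1 and sgBACH1 than in their controls in both experiments, with no overlap. It restates the fold changes by which the genes were chosen and carries the limit of shared reads, so it is a description. In the library with the highest ratio there was 1 *CEACAM5* count for 104.4 of *CEACAM6*. *CEACAM7* had 0 counts in the siCont library that held 23807 of *CEACAM6*. It has no stretch of at least 50 bases identical to a relative, so this does not bear on the *CEACAM5* counts.

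**Figure D3:**
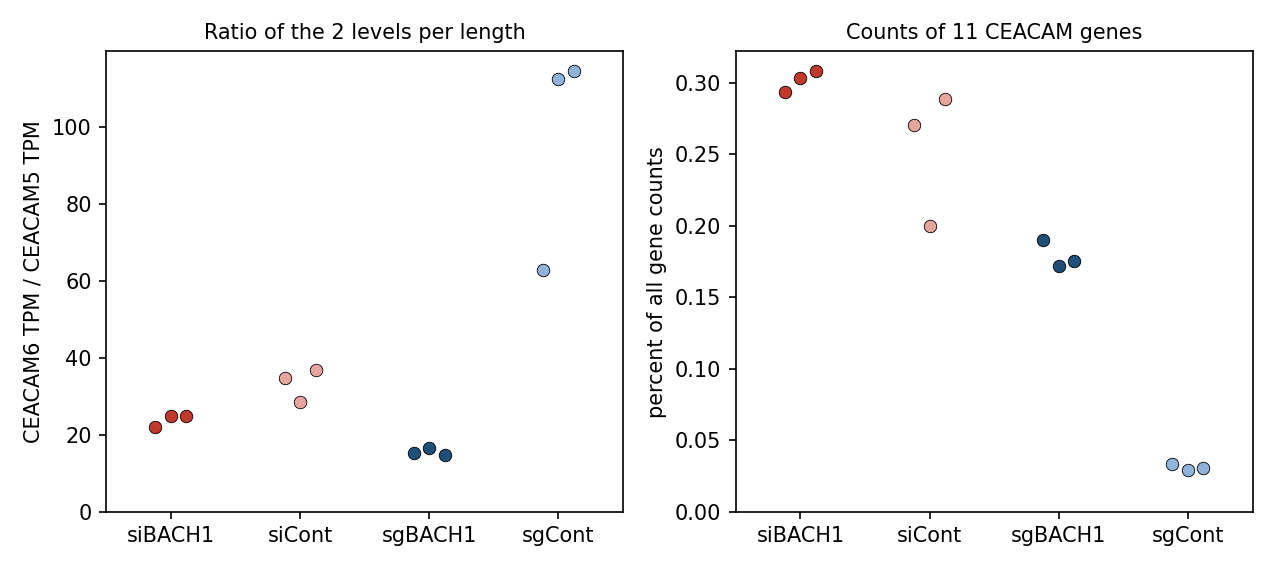
Left, *CEACAM6* over *CEACAM5* TPM in each library; right, the 11 CEACAM genes as a percent of all gene counts, both from 0. The sgCont libraries stand apart in both panels, at 62.7–114.6 and 0.029–0.034%.

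Over the 12 libraries, the member levels (log2 CPM) most alike were those of *CEACAM5* and *CEACAM6*, with a Pearson r of 0.964, and the most opposed were those of *CEACAM1* and *MSLN*, at -0.933. The libraries fall into 4 groups of 3, so these values mostly follow the group levels and are given as a description. Among 11581 other genes at a mean log2 CPM of at least 1, the patterns most like *CEACAM5* were those of *ATP7A*, a copper transporter (0.993), *LGMN*, a lysosomal protease (0.989), and *ATP2A3*, a calcium pump (0.985). For *CEACAM6* they were *TMEM176B* (0.995), *EFNA2*, a GPI-anchored ephrin (0.990), and *GLA*, a lysosomal galactosidase (0.989). For *MSLN* they were *AGRN*, the proteoglycan agrin (0.986), *CYP2B6*, a cytochrome P450 (0.976), and *LASP1*, an actin-binding protein (0.973). For *CEACAM1* they were *DHRS9*, a retinol dehydrogenase (0.982), the myosin gene *MYO6* (0.966) and *ALG13* (0.960). The nearest to *CEACAM7* were *MSL1* (0.968), *TANC2* (0.965) and *TRIM37* (0.963). *PSCA* and *CEACAM19*, at low counts, reached at most 0.938 (*TERF2*) and 0.873 (*TTC3P1*).

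The genes around each member on its chromosome were read as a description of the region. They were taken from the genes tested in each experiment, so the 2 sets need not be the same. Around *MSLN*, the 20 tested genes on each side had a median log2 fold change of -0.42 in sgBACH1 against sgCont, where all tested genes had 0.006. Of these 40 neighbours, 20 were called lower and 2 higher, where 12.3% and 11.3% of all tested genes were. A negative value was found for 31 of 40. All 10 of the nearest had a negative value there. After siRNA the 40 neighbours tested there, a partly different set, had a median of 0.23, and 30 of 40 had a positive value. Here 10 were called higher and 1 lower, where 10.9% and 13.0% of all tested genes were. *MSLN* thus had the sign of its neighbours' median in both experiments. One of these neighbours, *PIGQ*, serves in the synthesis of the GPI anchor that mesothelin carries, and it rose after siRNA by 0.47 ± 0.09 (adjusted p = 0.005146) and fell in the knockout by 0.47 on the log2 scale (adjusted p = 0.003379).

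Around the cluster of *CEACAM5*, *CEACAM6* and *CEACAM7*, the 40 neighbours had a median of -0.03 in sgBACH1 against sgCont, with 3 called higher and 3 lower. After siRNA the neighbours tested there had a median of 0.15, with 11 higher and 4 lower. The shares over all tested genes are those given beside the neighbours of *MSLN*. The medians around *CEACAM1* were 0.01 in the knockout and 0.06 after siRNA, and around *CEACAM19* 0.14 and 0.04. Around *PSCA* they were -0.05 in the knockout and 0.14 after siRNA. For comparison, the knockout values of *CEACAM5* and *CEACAM6* themselves were 4.99 and 2.52.

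**Figure D4:**
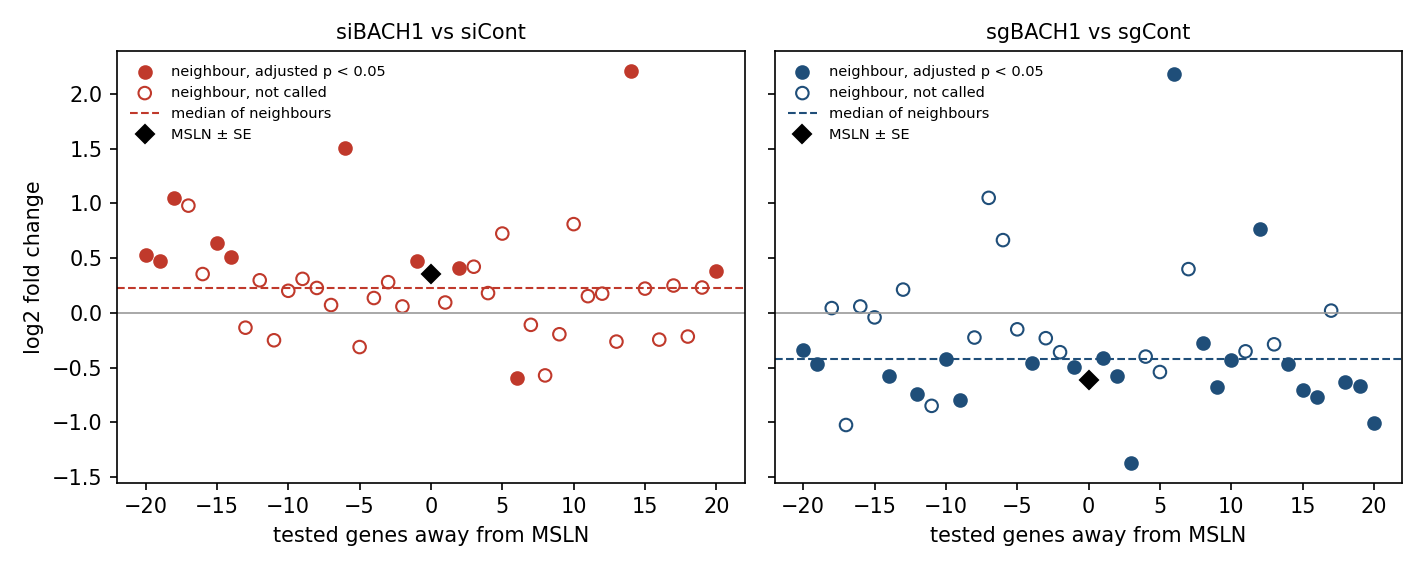
Log2 fold changes of the 20 tested genes on each side of *MSLN* (circles, filled where called), by rank of distance, with *MSLN* ± standard error as a diamond and the neighbours' median dashed. The median is 0.23 in siBACH1 against siCont and -0.42 in sgBACH1 against sgCont, and *MSLN* lies on the same side of 0 as the median in each.

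The other CEACAM genes were close to silent. Of the 6 others in the tables, none passed the filter in either experiment, nor did any of 10 pregnancy-specific glycoprotein genes. *CEACAM3* and *CEACAM8*, known from granulocytes, had 0–9 and 0–12 counts. Mesothelin's relatives were likewise untested, and *MUC16*, its binding partner, had 0–18 counts in all libraries. AACATTA and ACATTAA were searched because earlier results of these data tied them to falls after siRNA. They were in no 3′ untranslated region of the annotated protein-coding transcripts of the 7 members, the only transcripts searched.

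Among LY6 and uPAR domain proteins, the family of PSCA, 7 of the 21 in the tables were tested in each experiment. Over all tested genes, 23.9% were called after siRNA and 23.5% in the knockout. After siRNA 1 was called lower and 6 were not called. *PLAUR*, the urokinase receptor, fell by 0.76 on the log2 scale (adjusted p = 0.006788), and by 0.54 without siCont 2. In the knockout *LYPD3* rose by 1.29 ± 0.26 (adjusted p = 0.0006238), *LY6E* fell by 0.46 (adjusted p = 5.631e-05) and 5 were not called. The list's median log2 fold change was -0.18 after siRNA and 0.14 in the knockout.

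Of 9 proteins reported to bind CEACAM1 or CEACAM5, 8 were tested in each experiment, where 23.9% and 23.5% of all tested genes were called. After siRNA the TGF-beta receptor gene *TGFBR1* fell to 5.31 ± 0.93 CPM in siBACH1, against 33.7 ± 5.4 in siCont libraries, a log2 fold change of -2.67 ± 0.17 (adjusted p = 1.128e-05). *PTPN11*, the phosphatase SHP2 that docks on the CEACAM1 tail, fell to 136.6 ± 15.3 CPM in siBACH1, against 336.1 ± 34.9 in siCont libraries (log2 fold change -1.31 ± 0.10, adjusted p = 3.471e-05). The insulin receptor gene *INSR* rose by 0.44 ± 0.09 (adjusted p = 0.008423) and the other 5 were not called. In the knockout *PTPN11* was at 286.3 ± 2.0 CPM in sgBACH1 against 289.1 ± 13.3 in sgCont libraries, and *TGFBR1* at 32.8 ± 2.7 against 29.02 ± 4.80, neither called. There *SRC* (0.53 ± 0.11, adjusted p = 0.001206) and *INSR* (0.52 ± 0.11, adjusted p = 0.00057) rose. *FLNA*, the actin crosslinker filamin, and *EGFR* fell by 0.42 and 0.25 (adjusted p = 0.0001394 and 0.004816). The difference between the experiments was called for *TGFBR1*, at 2.84 ± 0.23 (adjusted p = 1.32e-07), and *PTPN11*, at 1.29 ± 0.12 (adjusted p = 8.025e-07).

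The enzymes that build and attach the GPI anchor of 5 of the members were counted next. Over all tested genes, 23.9% were called after siRNA and 23.5% in the knockout, so the counts are not read as a trait of this list. Of 26 tested after siRNA, 1 rose, 6 fell and 19 were not called. *PIGA*, which starts anchor synthesis, fell by 1.19 on the log2 scale (adjusted p = 0.006639), and *PIGK*, the protease of the transamidase that attaches it, fell by 0.94 (adjusted p = 0.0009323). *PIGC* fell by 0.70 and *PGAP1* by 0.66 (adjusted p = 0.003332 and 0.001307). In the knockout 2 rose, 3 fell and 21 were not called. *DPM1*, of mannose donor synthesis, rose by 0.59 ± 0.12 (adjusted p = 0.0006405) and *GPAA1*, of the transamidase, fell by 0.58 (adjusted p = 1.611e-06). *PIGO* fell by 0.32 (adjusted p = 0.01396), a call lost without sgBACH1 2 or sgCont 3. The median log2 fold changes of the list were -0.08 and -0.05 in the siRNA and knockout experiments.

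Among other GPI-anchored surface proteins, those called after siRNA were mainly lower. Of 19 tested, 1 rose, 7 fell and 11 were not called, where 10.9% of all tested genes rose and 13.0% fell. The median log2 fold change of this list was -0.63, where all tested genes had 0.005. *CD55*, a complement inhibitor, fell by 1.30 (adjusted p = 0.007058), and by 0.85 without siCont 2. *PRNP*, the prion protein gene, fell by 1.27 (adjusted p = 0.0006886), *NT5E*, the ectonucleotidase CD73, by 1.10 (adjusted p = 0.0004085) and *TFPI*, a coagulation inhibitor, by 1.06 (adjusted p = 5.547e-05). In the knockout 4 rose, 5 fell and 9 of 18 were not called, where 11.3% of all tested genes rose and 12.3% fell. *CD109* rose by 1.76 ± 0.15 (adjusted p = 2.202e-09) and the ephrin gene *EFNA1* by 1.34 ± 0.16 (adjusted p = 4.352e-07). *CD55* fell there too, by 1.20 (adjusted p = 4.961e-08), as did the placental alkaline phosphatase gene *ALPP*, by 1.10 (adjusted p = 1.353e-10). Whether this list differs from the members or from all tested genes was not tested.

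Among other epithelial tumour antigens, most but not all of the cell surface, 7 of 16 tested rose in the knockout, 2 fell and 7 were not called. Over all tested genes, 11.3% were called higher there and 12.3% lower. *TMPRSS4*, a membrane serine protease gene, had 126 counts over the sgBACH1 libraries and none in sgCont libraries. That is at least 39.3-fold higher against a floor of 3 counts over the group. It passed the filter on low counts only through the sgBACH1 libraries, so its call, counted among the 7, is a description. The mucin gene *MUC17* rose by 1.76 ± 0.13 (adjusted p = 2.113e-10), to 134.0 ± 13.2 CPM in sgBACH1, against 39.4 ± 9.4 in sgCont libraries. *AGR2*, a chaperone of mucin-making cells, rose by 1.06 ± 0.09 (adjusted p = 1.622e-09), and *MUC13* fell by 0.97 (adjusted p = 1.558e-08). After siRNA 4 of 15 rose, 3 fell and 8 were not called, where 10.9% of all tested genes were called higher and 13.0% lower. *MUC13* rose by 0.62 ± 0.07 (adjusted p = 0.0003836), so that it had the signs of *MSLN* in both experiments, and the difference itself was -1.60 ± 0.13 (adjusted p = 1.234e-07). The tissue factor gene *F3* fell by 1.499 (adjusted p = 0.003173), and by 1.05 without siCont 2. *GPA33*, an intestinal surface antigen, fell by 0.88 (adjusted p = 0.0005986) and the cadherin gene *CDH17* by 0.63 (adjusted p = 0.0001961).

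The knockout response minus the siRNA response was also tested for the listed genes other than cell type markers. It was positive for most of those called. Over all tested genes, 13.0% were called with a positive difference and 10.6% with a negative one. Among other GPI-anchored proteins 7 of 19 were positive, 1 negative and 11 not called. *CD109* differed by 2.51 ± 0.20 (adjusted p = 8.895e-08), *BST2*, the virus-tethering protein tetherin, by 1.87 ± 0.42 (adjusted p = 0.003667), *NT5E* by 1.76 ± 0.16 (adjusted p = 4.565e-07) and *EFNA1* by 1.66 ± 0.20 (adjusted p = 9.965e-06). Among epithelial antigens 7 of 16 were positive, 3 negative and 6 not called. *MUC17* differed by 2.78 ± 0.49 (adjusted p = 0.0005095), and by 1.90 without siCont 2, which held 504.5 CPM of it against 124.3 and 160.4 in siCont 1 and 3. *F3* differed by 2.17 ± 0.29 (adjusted p = 3.573e-05). *TMPRSS4*, at 5.96 ± 1.96, passed the filter here too only through the sgBACH1 libraries, and lost its call in 10 of 18 alternatives.

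Of the GPI anchor genes, 5 of 26 had a positive difference, 2 a negative one and 19 were not called. *PIGA* differed by 1.83 ± 0.42 (adjusted p = 0.003735), *PIGK* by 1.04 ± 0.21 (adjusted p = 0.001392) and *PIGC* by 0.86 ± 0.20 (adjusted p = 0.004004). *PIGQ*, the neighbour of *MSLN*, differed by -0.95 ± 0.15 (adjusted p = 0.0001538), beside -0.98 ± 0.11 for *MSLN* itself. Among LY6 and uPAR domain proteins 3 of 7 were positive and 4 not called. These 3 were *LYPD3* (1.11 ± 0.36, adjusted p = 0.03471), *PLAUR* (0.60 ± 0.19, adjusted p = 0.02719) and *CD59* (0.44 ± 0.15, adjusted p = 0.03868), and their calls were lost in 7, 6 and 8 of 18 alternatives.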

How the data were processed

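The deposited tables hold raw read counts per gene, 1 table per experiment, which the authors made, per the submitters' processing notes, with HTSeq 0.9.1 and SAMtools on genome hg19. Total RNA was depleted of rRNA and sequenced on an Ion Proton, per the labels' protocols. No source used here gives the aligner or the strand setting. Reads that fit several genes may have been dropped, which would lower genes with near-identical relatives. Library totals, summed over all genes, ran from 13099706 to 21478886 and limit genes with few counts.

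Libraries were grouped by title. Counts were tested with edgeR 4.0.16 (R 4.3.3): TMM scaling, filterByExpr with a minimum count of 10, the two-sided quasi-likelihood test, and p-values adjusted by Benjamini-Hochberg across every tested gene, called below 0.05. Each experiment was fitted alone, and the difference of responses in 1 fit of 12 libraries. The standard error is the log2 fold change over the square root of F. TPM used the union of exons in GENCODE 29 (GRCh38), which was never set against hg19 coordinates. Identical stretches and motifs were found with Python 3.11.15 and Biopython 1.88. The floor of 3 counts covers counting error only. The fits were tested on simulated data.

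The members and all lists were chosen with earlier results of these data known. Named list genes are the up to 4 called genes of largest change per list and comparison, with *MUC16*. Genes named for likeness are the 3 highest by Pearson r for each member. Alternatives were other scalings, no filter, DESeq2 1.42.0, limma-voom 3.58.1, a replicate block, each library left out, and other lengths and stretch sizes.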

Additional observations from a re-analysis of the deposited data

Results flagged for a closer look

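For 4 genes the response to BACH1 loss differed between the experiments in the fit of all 12 libraries, with the knockout response minus the siRNA response past the call threshold. On the log2 scale this difference was 4.24 ± 0.23 for *CEACAM5*, 2.26 ± 0.14 for *CEACAM6*, 1.72 ± 0.18 for *CEACAM1* and -0.98 ± 0.11 for *MSLN*. The genes were chosen with both responses in view, so these are descriptions. Method, time and control differ together between the experiments and cannot be told apart.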

How the results depend on the processing

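Leaving out 1 library at a time gave 2002 to 5121 calls after siRNA (3481 with all), 2500 to 3586 in the knockout (3407) and 2960 to 3990 for the difference (3687). Only the 3 counts without an siBACH1 library moved by more than 1.5 times. The siRNA maximum came without siCont 2. Other scalings, tests and filters stayed within 1.5 times. Of the members' values, *PSCA* in the knockout turned to 0.11 without sgBACH1 2 and 0.16 without sgCont 2 (lowest -0.22 and highest 0.16 over single libraries left out), the difference for *CEACAM7* to -1.42 with limma-voom, and that for *CEACAM19* to 1.71 without sgCont 2 (lowest -2.86). All 3 genes have few counts. *CEACAM6* after siRNA was called with no filter on low counts (0.26). All other member values, 252 of 257, kept direction and call. Named list genes kept theirs in 192 of 192 alternatives after siRNA, 214 of 216 in the knockout and 275 of 306 for the difference. With stretches of at least 30 bases the shared share was 15.7% for *CEACAM1*, 33.0% for *CEACAM5*, 25.7% for *CEACAM6* and 9.20% for *CEACAM7*. With 100 bases it was 3.33% for *CEACAM1* and 0 for *CEACAM5* and *CEACAM6*. The order of levels per length held for 82 and 81 of 84 pairs with longest-transcript and coding lengths.

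Same-numbered libraries had correlations of deviations of 0.019 to 0.057 after siRNA and -0.015 to 0.049 in the knockout. Differently numbered ones had -0.048 to 0.01 and -0.063 to 0.028. All are small, and whether replicate numbers pair the libraries was not settled by them. A replicate block gave 3196, 3530 and 3513 calls for siRNA, knockout and difference.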
